A study of Homo sapiens with 27 samples.

Results

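The 8 genes CNTNAP2, CSMD1, CSMD3, PTPRD, NRXN3, CTNNA2, CNTN5 and DLG2 were chosen by name from the 19974 protein-coding genes of chromosomes 1 to 22 and X, as giant genes of neuronal adhesion and synapses that are rich in A and T and little transcribed outside neurons. O6-methylguanine, a base lesion that temozolomide (TMZ) leaves on DNA, was mapped at single bases in LN-229, a human glioblastoma cell line. The MGMT-transfected line was set against its transfection control, called WT. Whether either line is a single clone was not given in the sources used here. Cells received 1 mM TMZ, or 1% DMSO as solvent, either once or as 3 exposures spaced 4 h apart. Their DNA was collected 24 h from the start. Purified (naked) DNA treated with 1 mM TMZ served as the reference without chromatin or repair, with replicate 1 from LN-229 cells that had not been transfected, replicate 2 from the WT line and replicate 3 from the MGMT line. The 8 cell groups and the naked DNA had 3 libraries each, 27 in all, which the labels call biological replicates.

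Neurexins, contactins and receptor phosphatases join the membranes of neighbouring neurons at a synapse, and scaffolds and catenins tie them to the cytoskeleton inside the cell. Their genes are spread over very long introns, and in cells that do not use them such genes lie mostly in late-replicating, AT-rich chromatin. MGMT is the enzyme that removes the methyl group from O6-methylguanine. Neither transcription nor replication timing of the genes was measured here. In the GRCh38.p14 RefSeq table, the contactin gene CNTN5 lies at chr11:99020949-100358885 and DLG2, the gene of the postsynaptic scaffold PSD-93, at chr11:83455012-85628373. CTNNA2, which encodes the neuronal alpha-catenin that links cadherins to actin, lies at chr2:79185377-80648780. CNTNAP2, a neurexin relative that gathers potassium channels along axons, lies at chr7:146116801-148420998, and the neurexin gene NRXN3 at chr14:78170373-79868291. PTPRD, a receptor tyrosine phosphatase that organises presynaptic endings, lies at chr9:8314246-10613002. CSMD1 and CSMD3 encode large membrane proteins with CUB and Sushi domains.

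The windows around annotated starts show what a marked base looks like in these genes. RefSeq sequences (GRCh38.p14) of 250 bases before to 50 after a start gave 21 windows for 6 of the genes. The 5 windows below are shown because they are the most heavily marked ones of NRXN3 and CTNNA2, an AT-rich start of CTNNA2 for contrast, and a DLG2 start marked mainly on 1 strand. They are written 5′ to 3′ on the strand of the gene. A capital G is a G marked in at least 1 TMZ or naked DNA library, and a capital C is a base whose partner G on the opposite strand was marked.
NRXN3 first start, chr14:78170123-78170422, plus strand: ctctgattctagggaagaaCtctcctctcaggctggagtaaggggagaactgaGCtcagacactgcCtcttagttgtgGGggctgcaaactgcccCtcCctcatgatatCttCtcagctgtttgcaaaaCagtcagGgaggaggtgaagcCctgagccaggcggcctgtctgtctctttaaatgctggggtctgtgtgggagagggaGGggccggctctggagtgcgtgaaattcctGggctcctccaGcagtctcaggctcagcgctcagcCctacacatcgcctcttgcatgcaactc
NRXN3 later start, chr14:78403469-78403768, plus strand: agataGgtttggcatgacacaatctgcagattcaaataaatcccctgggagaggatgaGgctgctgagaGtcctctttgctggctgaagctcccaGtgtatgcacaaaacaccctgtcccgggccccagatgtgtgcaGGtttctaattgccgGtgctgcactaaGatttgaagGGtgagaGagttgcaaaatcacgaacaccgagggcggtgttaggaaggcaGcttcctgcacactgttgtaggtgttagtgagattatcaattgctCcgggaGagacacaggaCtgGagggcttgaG
CTNNA2 first start, chr2:79185127-79185426, plus strand: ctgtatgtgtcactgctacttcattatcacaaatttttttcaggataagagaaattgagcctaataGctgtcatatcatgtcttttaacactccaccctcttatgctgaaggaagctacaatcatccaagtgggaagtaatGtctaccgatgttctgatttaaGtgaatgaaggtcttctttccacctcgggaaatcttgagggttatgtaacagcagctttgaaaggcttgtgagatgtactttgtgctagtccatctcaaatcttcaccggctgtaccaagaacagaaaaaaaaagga
CTNNA2 later start, chr2:79512801-79513100, plus strand: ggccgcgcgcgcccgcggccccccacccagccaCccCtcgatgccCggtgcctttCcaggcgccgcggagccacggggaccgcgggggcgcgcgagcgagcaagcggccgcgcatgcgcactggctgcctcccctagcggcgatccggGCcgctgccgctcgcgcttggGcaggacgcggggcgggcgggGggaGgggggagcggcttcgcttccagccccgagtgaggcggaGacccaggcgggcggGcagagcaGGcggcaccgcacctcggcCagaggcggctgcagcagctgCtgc
DLG2 internal start, chr11:84720893-84721192, minus strand: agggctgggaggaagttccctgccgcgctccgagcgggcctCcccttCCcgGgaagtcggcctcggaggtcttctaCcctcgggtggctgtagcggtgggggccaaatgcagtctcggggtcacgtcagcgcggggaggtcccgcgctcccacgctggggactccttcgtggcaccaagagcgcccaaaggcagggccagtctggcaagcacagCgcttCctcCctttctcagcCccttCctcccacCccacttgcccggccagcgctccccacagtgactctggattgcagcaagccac

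The first NRXN3 window, with 57.0% G and C, held 21 rows of marked G over all libraries, 8 from naked DNA, 12 from TMZ and 1 from solvent. The later NRXN3 window had 20 rows, 16 of them from TMZ, with 15 marked positions on the strand of the gene and 2 on the other. The CTNNA2 window with 80.0% G and C and 43 CpG dinucleotides had 17 rows, and the AT-rich CTNNA2 window, with 39.3%, had 4. The DLG2 window had 11 rows, at 1 position on the strand of the gene and 10 on the opposite strand. Over the 21 windows, 84 of 97 marked Gs under TMZ (86.6%, 95% Wilson interval 78.4 to 92.0) followed an A or a G. In naked DNA it was 44 of 59 (74.6%, 62.2 to 83.9) and under solvent 7 of 14 (50%, 26.8 to 73.2). Of all Gs in both strands of the windows, 1921 of 3308 (58.1%) followed an A or a G. The intervals cover counting error only.

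The data are lists of marked positions, so each library gives how many Gs of a gene were marked, not how often. Counted at a score of at least 30, the libraries held 170288 to 826017 marked Gs under solvent, 742216 to 5631616 under TMZ and 5268792 to 9079809 in naked DNA. The 8 genes, 14.5 Mb together, carried 218396 marked Gs over all libraries (0.361% of the series), from 661 to 33356 per library. All 8 passed the filter on low values. Each level is given as marked Gs per Mb of gene per 1000000 marked Gs of the library (density units), a share of the library that carries no absolute amount of damage. One solvent library, MGMT with 1 exposure, replicate 1, stood apart, with 43.5% of its marked positions at G, and results that turn on it are given without it. By the positions they shared at A, C and T, the libraries also fell into 5 sets, and comparisons are repeated within sets. 3 of the sets hold WT and MGMT libraries of both treatments. Naked DNA replicates 2 and 3 form 1 set without any cell library. In comparisons with naked DNA these libraries therefore cannot be told apart from their set. With the sets as a block, those comparisons rest on naked DNA replicate 1 alone. No sequence of the whole gene bodies was used, so the AT-rich description was not checked directly. The share of G and C among positions marked under solvent, which itself depends on which bases were marked, was 33.2% (CNTN5) to 38.7% (NRXN3), against a median of 43.8% over the 17702 genes tested.

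In all 8 genes the share of marked positions that were Gs was higher under TMZ than under solvent in the median library, and higher again in naked DNA. The whole libraries had the same order, with 19.0% to 43.5% under solvent, 32.5% to 64.1% under TMZ and 67.8% to 70.9% in naked DNA, so the order is not particular to these genes. The median difference of each gene from its library was below 0 in all 3 kinds of library, from -0.54 (NRXN3) to -5.74 (CNTN5) percentage points under TMZ. In DLG2 this share ranged from 16.5% to 39.6% over the 12 solvent libraries (median 18.4%), from 28.2% to 59.5% over the 12 TMZ libraries (median 48.2%) and from 65.9% to 68.6% in naked DNA. In NRXN3 the medians were 20.1% under solvent, 49.6% under TMZ and 67.2% in naked DNA. CNTN5 had 18.2%, 46.5% and 65.1%. The highest solvent value of each gene came from the library that stood apart, with 36.0% in CNTN5 to 41.8% in CSMD1. CNTNAP2 had 42.7%, 39.0% and 48.8% in the WT line after 1 TMZ exposure and 56.7%, 61.2% and 59.4% after 3, and these groups did not overlap. In the MGMT line it had 33.5%, 30.7% and 39.0% after 1 and 48.8%, 59.6% and 56.4% after 3, again without overlap. The whole libraries of the WT line had 44.8%, 41.9% and 52.5% after 1 and 59.7%, 64.1% and 62.6% after 3. Those of the MGMT line had 37.3%, 32.5% and 43.8% after 1 and 52.5%, 61.6% and 60.3% after 3. The separation by exposures is therefore not particular to CNTNAP2. These shares are descriptions and were not tested.

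In naked DNA the genes differed widely in density. CNTNAP2 had 314, 307 and 340 density units (mean 320 ± 17.6, SD, n = 3), and NRXN3 had 311, 301 and 296 (303 ± 7.71). CTNNA2 followed with 283, 260 and 330 (291 ± 35.6). The ranges of CNTNAP2, NRXN3 and CTNNA2 overlapped one another. CSMD3 (chr8:112222928-113436939; 268 ± 11.9) and CSMD1 (chr8:2935361-4994914; 260 ± 6.87) also overlapped, as did PTPRD (224 ± 10.7) and DLG2 (213 ± 4.61). The lowest library of CSMD1, 252, lay above the highest of PTPRD, 235. All 8 genes lay below the median gene, at 446, and 61 other genes of at least 1 Mb had a median of 271. CNTN5 stood far below the others, with 80.5, 74.5 and 75.4 (76.8 ± 3.24). It was the lowest of the 69 genes of at least 1 Mb.

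CNTN5 was also low at other bases and in the cell libraries. Its density was 0.290 ± 0.00576 (SD, n = 3) of the median of the other 7 genes in naked DNA, 0.299 ± 0.0411 under solvent and 0.286 ± 0.0352 under TMZ (n = 12 each). At A, C and T the ratios were 0.310 ± 0.0377, 0.354 ± 0.0317 and 0.321 ± 0.0294, and without a score minimum 0.329 ± 0.0114, 0.450 ± 0.103 and 0.379 ± 0.0711 at G, in the same order and with the same numbers of libraries. The ranges at G and at A, C and T overlapped in each kind of library, and differences between these ratios were not tested. Of its G rows, 74.7% had a score of at least 30, against 88.6% to 92.7% in the other genes. The 500 kb on either side of CNTN5 were also low, with 111 and 90.2 density units in naked DNA. All 26 of its 50 kb windows lay between 49.2 and 102, while the lowest window of any other member was at 133, in DLG2.

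**Figure D1:**
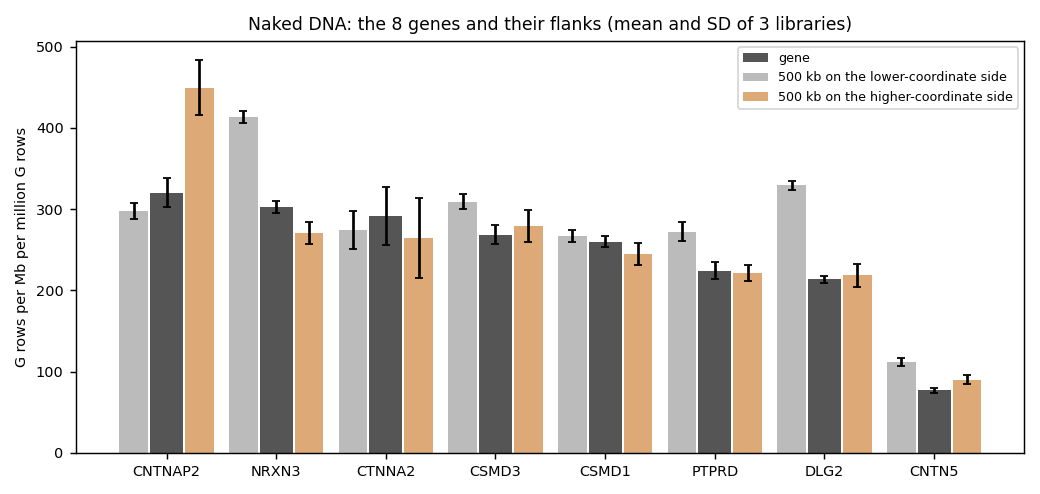
Density of marked Gs, in density units, in naked DNA for the 8 genes and the 500 kb on either side, as means with SD over 3 libraries. CNTN5, at 76.8, and both of its flanks, at 111 and 90.2, lie below every other gene and flank shown.

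Differences between TMZ-treated cells and naked DNA were small in these genes. In the fit over all genes (limma with voom weights, adjusted p by Benjamini-Hochberg over 17702 genes), 1 of the 8 passed the threshold of 0.05, CSMD1, whose density fell by 0.15 on the log2 scale (SE 0.03, adjusted p = 0.016). Over all genes, 0.378% were called lower. CSMD1 had 266, 262 and 252 density units in naked DNA and 214 to 259 over the 12 TMZ libraries (median 232), and the ranges overlapped. At A, C and T the CSMD1 difference was -0.05 (adjusted p = 0.27), and 0 of the 8 genes were called there, with 2 at an unadjusted p under 0.05, against 2.42% of all genes in either direction. The other 7 genes lay between -0.05 (CTNNA2) and 0.07 (CSMD3), with 95% intervals that stayed within -0.15 and 0.14. With GC content (the share of G and C among positions marked under solvent) taken out, all 8 were below 0, from -0.03 (CSMD3) to -0.22 (CSMD1, the 1 called, adjusted p = 1.6e-05), and CNTNAP2 (-0.05), CSMD3 and PTPRD (-0.08) changed sign. The CSMD1 call held in 12 of 19 alternatives and was lost, among others, with trimmed mean scaling (adjusted p = 0.33), with median-of-ratios scaling (0.065), with limma-trend (1.0), with the sets as a block (0.31), over flanks (0.19) and without replicate 2 (0.77). Calls over all genes went from 125 to 12 with trimmed mean scaling, 84 with median-of-ratios scaling and 0 with limma-trend. With GC content taken out they went to 20, of which 19 were lower (0.107% of all genes).

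Solvent-treated cells showed a different pattern. Density was higher than in naked DNA for 5 of the 8 genes, against 5.39% of all genes and 29 of the 61 other genes of at least 1 Mb called higher: CSMD3 (0.29, SE 0.05, adjusted p = 7.3e-05), DLG2 (0.26, 0.04, 2.4e-05), PTPRD (0.21, 0.04, 0.00051), CNTN5 (0.19, 0.07, 0.048) and CNTNAP2 (0.18, 0.04, 0.0014). CTNNA2 (0.15, adjusted p = 0.054) and CSMD1 (0.11, 0.055) did not pass, and NRXN3 was at -0.04 (0.61). Without the library that stood apart, CTNNA2 (0.18, adjusted p = 0.015) and CSMD1 (0.11, 0.027) were called as well. The CNTN5 call held in 8 of 17 alternatives, with values from -0.15 (sets as a block) to 0.52 (no minimum score). The median over all genes was -0.13. DLG2 had 218, 214 and 209 in naked DNA and 216 to 268 over the solvent libraries (median 257). Its lowest solvent library, at 216, was the library that stood apart, and the other 11 lay above all 3 of naked DNA. Positions at A, C and T gave like calls: 6 genes were called higher there (CSMD3 0.22, DLG2 0.24, CNTN5 0.23, PTPRD 0.16, CNTNAP2 0.14, CTNNA2 0.13), against 7.46% of all genes. NRXN3 was called lower there (-0.08), as were 30.7% of all genes. Under limma-trend the call at G held for DLG2 alone, without replicate 2 it held for DLG2, CSMD3 and PTPRD, and with the sets as a block for none. Over all genes limma-trend called 55 higher and 138 lower, in place of 955 and 3099. With GC content taken out, or over flanks, none of the 5 was called, and 1 other gene was called lower in each, NRXN3 (-0.14) and CTNNA2 (-0.17). Over all genes, the fit with GC content taken out called 626 higher and 346 lower. Its GC measure comes from the solvent libraries, 1 side of this comparison, so the loss cannot show whether base composition accounts for the calls. Trimmed mean and median-of-ratios scaling called 7 of the 8 higher, with 1888 and 1730 genes called higher and 1985 and 2120 lower over all genes, in place of 955 and 3099. In the 1 set that holds naked DNA and both treatments, solvent minus naked was 0.14 for DLG2, 0.06 for PTPRD, 0.04 for CSMD3, 0.03 for CNTNAP2 and -0.17 for CNTN5. Its 2 solvent libraries include the one that stood apart. In the other, DLG2 had 267, PTPRD 250, CSMD3 271, CNTNAP2 311 and CNTN5 74.6 density units. Naked DNA of the set had 218, 235, 278, 314 and 80.5, so CSMD3 and CNTNAP2 change direction without the library that stood apart.

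Between TMZ and solvent, 7 of the 8 genes were called lower under TMZ and none higher, against 1.99% of all genes called lower. DLG2 fell by 0.27 on the log2 scale (SE 0.04, adjusted p = 1.1e-05), CSMD1 by 0.26 (0.03, 1.1e-05), CNTN5 by 0.24 (0.07, 0.023) and CSMD3 by 0.22 (0.05, 0.0020). CTNNA2 fell by 0.20 (0.05, 0.0073), PTPRD by 0.19 (0.04, 0.00085) and CNTNAP2 by 0.15 (0.03, 0.0025). NRXN3 did not pass, at 0.02 (95% interval -0.06 to 0.10, adjusted p = 0.81). This comparison shares its libraries with those against naked DNA, so they are not independent. Single libraries of the same line, exposure number and replicate number were also set side by side. DLG2, PTPRD and CSMD1 were lower under TMZ than under solvent in 12 of 12 such pairs. CSMD3 and CTNNA2 were lower in 11, CNTN5 in 10, CNTNAP2 in 9 and NRXN3 in 5. The labels do not say that these numbers pair samples. Same-numbered libraries deviated together in only 5 of the 12 pairs of treatments (correlation above 0.1). They were therefore not taken as pairs, and the counts are descriptions. CSMD1 ranged from 253 to 295 under solvent (median 279) and from 214 to 259 under TMZ (median 232), so the ranges overlapped. DLG2 reached 233 at most under TMZ and had 1 solvent library below that, the one that stood apart.

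At A, C and T the same 7 genes were also called lower under TMZ, by 0.07 (CSMD1) to 0.20 (CNTN5), against 4.46% of all genes. NRXN3 was called higher there, by 0.07, as were 21.5% of all genes. CSMD1 differed by -0.26 at G and -0.07 at A, C and T, and DLG2 by -0.27 and -0.14; whether G and the other bases differ was not tested. With GC content taken out CSMD1 (-0.19) and DLG2 (-0.15) were called and the other 5 were not, while relative to the 500 kb flanks none was. Over all genes the fit with GC content taken out called 306 lower and 121 higher, in place of 352 and 1530. Its GC measure comes from the solvent libraries, 1 side of this comparison, which limits what the loss shows. Without replicate 2, or without replicate 3, CSMD1, PTPRD and DLG2 were called and CTNNA2, CNTNAP2, CSMD3 and CNTN5 were not, and without the library that stood apart all 7. Calls over all genes without these replicates are not given here. In the fits by 50 kb window and strand, leaving them out took calls over all features from 1196 to 129 and 104. The loss therefore cannot be read as particular to these genes. With the sets as a block CNTN5 was not called (-0.23, adjusted p = 0.10) and the other 6 were. The median over all genes was 0.10 in this contrast and 0.00 with trimmed mean or median-of-ratios scaling, which gave 819 and 831 genes called lower, with 970 and 894 higher, in place of 352 and 1530. The same 7 members were called lower under both. Within the set of 2 TMZ and 2 solvent libraries of replicate 1, CNTNAP2 was at 0.10, and the other 6 called genes between -0.29 (DLG2) and -0.04 (CSMD3). This set includes the solvent library that stood apart, and the sign of CSMD3 turns on it. In CSMD3 the other solvent library had 271 density units and the 2 TMZ libraries 284 and 272. Within both larger sets all 7 were negative, from -0.13 (CSMD3) to -0.31 (CSMD3).

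**Figure D2:**
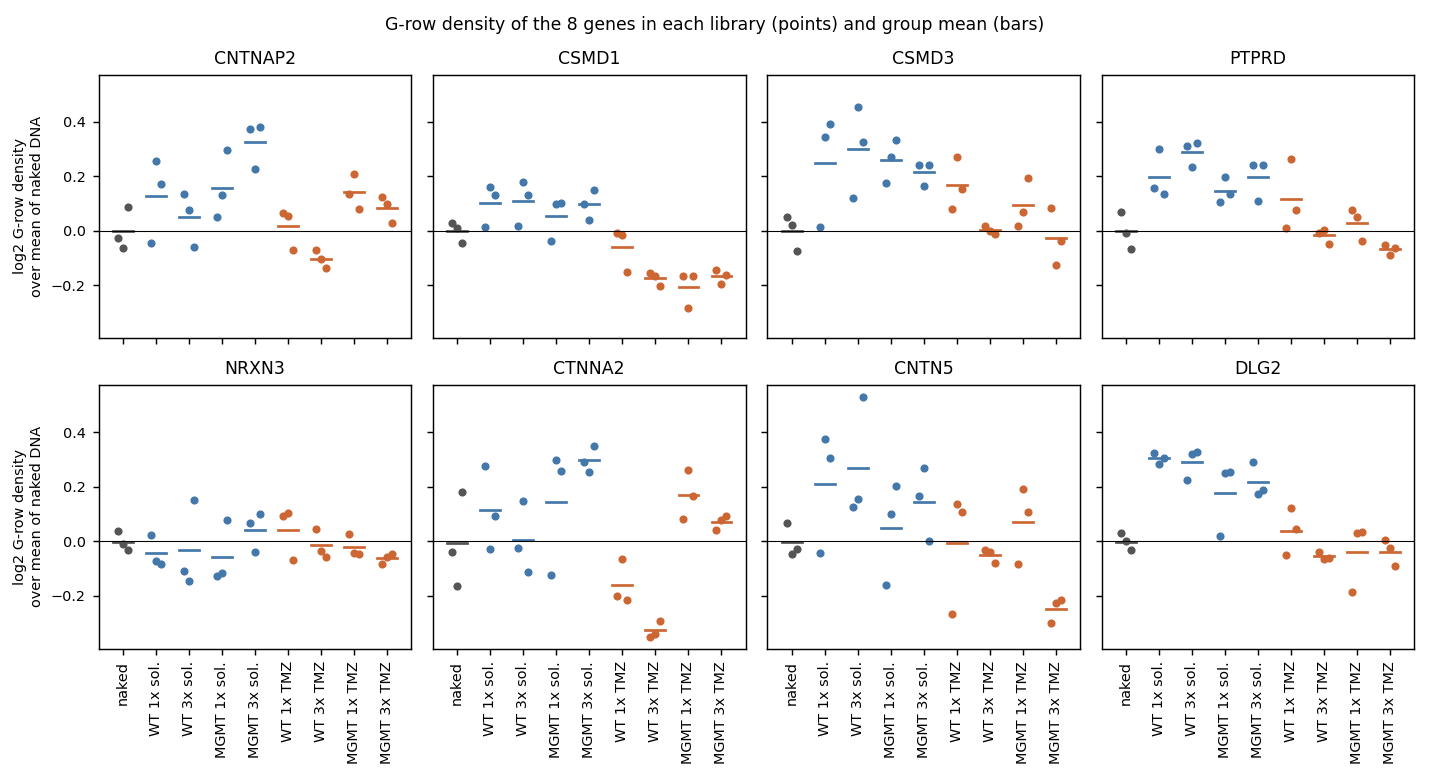
Log2 density of marked G in each gene and library relative to the mean of naked DNA (y axis), with 1 point per library and a bar at the mean of each group of 3 (x axis; sol. is solvent). DLG2, PTPRD and CSMD3 lie above 0 in every solvent library, NRXN3 has points on both sides of 0 under both treatments, and CSMD1 lies below 0 in all 12 TMZ libraries.

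**Figure D3:**
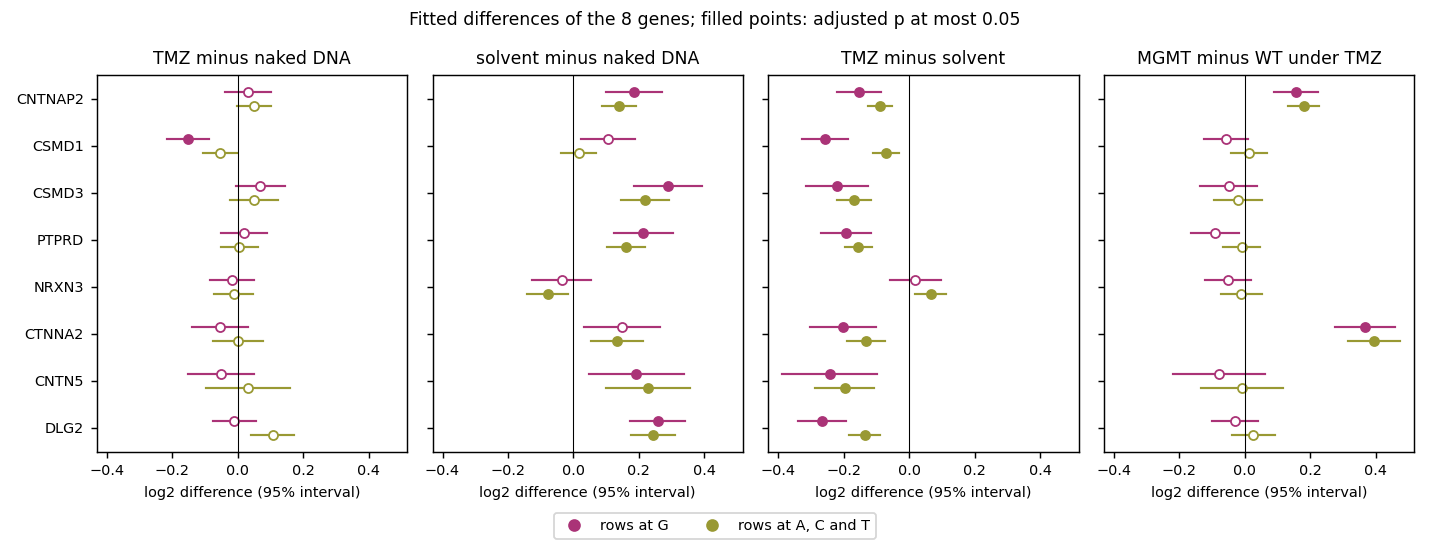
Fitted log2 differences with 95% intervals for the 8 genes in 4 comparisons, for marked Gs and for positions at A, C and T, with filled points where the adjusted p was at most 0.05. In the comparison of TMZ with solvent 7 genes lie below 0 for both kinds of position, and in that of MGMT with WT only CTNNA2 (0.37) and CNTNAP2 (0.16) are called.

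CTNNA2 and CNTNAP2 were higher in the MGMT line under TMZ. There, CTNNA2 was 0.37 higher on the log2 scale in MGMT than in WT cells (SE 0.05, adjusted p = 5.2e-07), and CNTNAP2 was 0.16 higher (SE 0.03, adjusted p = 0.0021), against 4.07% of all genes called higher. CTNNA2 had 254, 279 and 251 density units in WT cells after 1 exposure and 229, 230 and 238 after 3. In MGMT cells it had 308, 349 and 327 after 1 and 300, 308 and 311 after 3, so that no MGMT library reached down to a WT one. CNTNAP2 ranged from 291 to 335 in WT and from 327 to 370 in MGMT cells, which overlap, and was higher in MGMT in 6 of 6 pairs of the same replicate number. These numbers were not taken to pair samples, so that count is a description. The other 6 genes lay between -0.09 (PTPRD, adjusted p = 0.13) and -0.03 (DLG2). CNTNAP2 was not called with limma-trend (adjusted p = 0.19), with background rows subtracted (0.16) or without replicate 2 (0.085). Over all genes limma-trend called 188, in place of 1155.

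Naked DNA of the MGMT line was also the highest naked library in both genes. Naked DNA from the MGMT line had 330 density units in CTNNA2, and the other naked libraries had 283 and 260. Naked DNA of the MGMT line had 372 in CTNNA2 at A, C and T, against 282 and 292. CNTNAP2 had 340 in naked DNA of the MGMT line and 314 and 307 in the others, with 373 against 356 and 355 at A, C and T. These rest on 1 naked library of the MGMT line, with no replicate. Under TMZ at A, C and T both genes were called higher in MGMT cells, CTNNA2 by 0.39 and CNTNAP2 by 0.18, against 6.62% of all genes. Under solvent none of the 8 genes was called at G (0.0113% of all genes in either direction; 1 member at an unadjusted p under 0.05, and 0 called with limma-trend, which called 532 of 17702 genes), with CTNNA2 at 0.19 (95% interval 0.00 to 0.37, adjusted p = 0.52). CTNNA2 ranged from 269 to 353 in WT and from 267 to 371 in MGMT cells there, which overlap, and without the library that stood apart, the lowest, it was at 0.24 (adjusted p = 0.30). CNTNAP2 was at 0.11 under solvent (95% interval -0.0046 to 0.23, adjusted p = 0.56), with 308 to 382 in WT and 332 to 417 in MGMT cells, which overlap. At A, C and T under solvent CTNNA2 was called higher by 0.30, against 5.54% of all genes, and CNTNAP2 was not called (0.07, adjusted p = 0.11). The difference also ran past the ends of the genes: on the log2 scale the 500 kb flanks of CTNNA2 were 0.26 and 0.32 higher in MGMT than in WT cells under TMZ, and those of CNTNAP2 0.17 and 0.06. Relative to their flanks, CTNNA2 was at 0.07 (adjusted p = 0.85) and CNTNAP2 at 0.03 (0.92). Within the 3 sets that hold both lines under TMZ, CTNNA2 was higher in MGMT by 0.28, 0.36 and 0.40 and CNTNAP2 by 0.07, 0.17 and 0.17. The term for genotype by treatment called 0 of the 8 genes (0.00565% of all genes; 0 members at an unadjusted p under 0.05 with voom weights and 1 with limma-trend, which called 0), and for CTNNA2 it was 0.18 (95% interval -0.02 to 0.39).

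**Figure D4:**
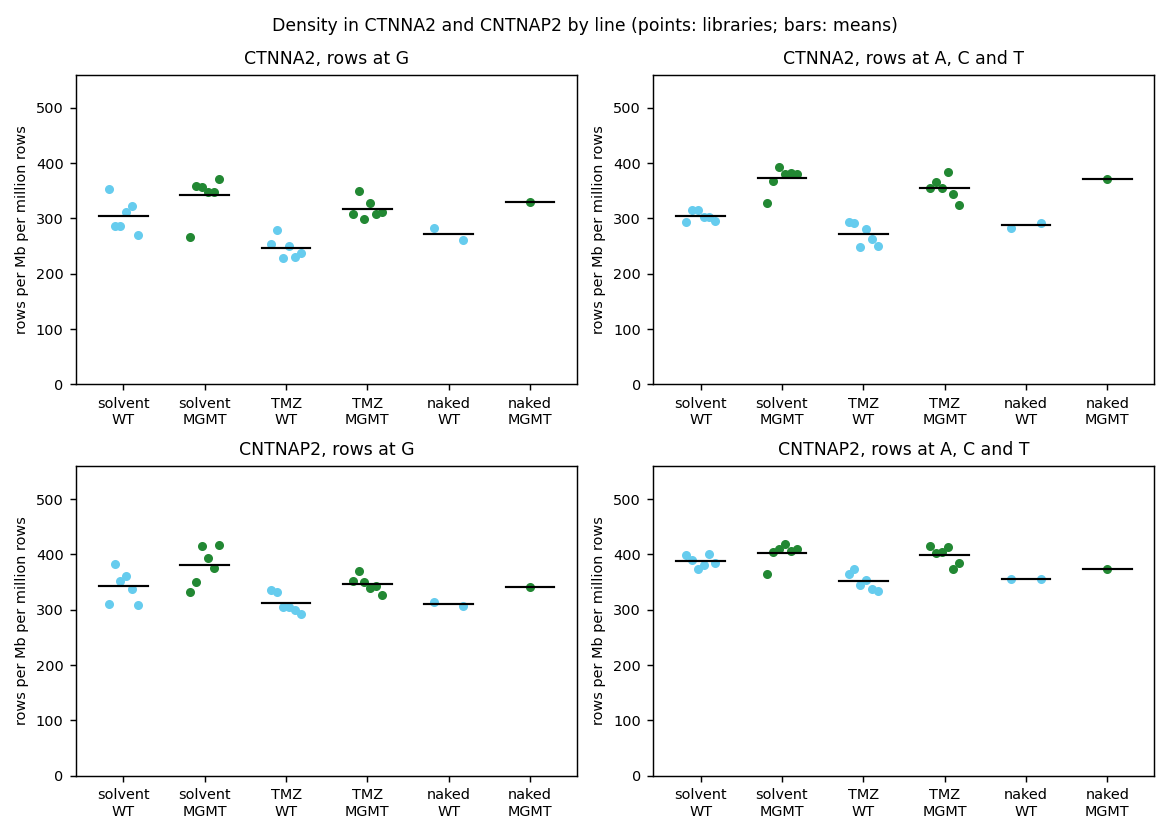
Density in CTNNA2 (top) and CNTNAP2 (bottom) by treatment and line, for marked Gs (left) and positions at A, C and T (right), with 1 point per library and bars at means; naked DNA of non-transfected cells is drawn with WT. In CTNNA2 the MGMT libraries lie above the WT ones under TMZ (300 to 349 against 229 to 279 at G) and in naked DNA (330 against 260 and 283).

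The number of exposures left no called change at G. Under TMZ, the estimates for 3 exposures minus 1 were below 0 for all 8 genes, from -0.03 (CSMD1) to -0.22 (CNTN5), with a median of -0.10 against 0.06 over all genes. That direction did not hold in every alternative. With GC content taken out CSMD1 and DLG2 were at 0.02 and the lowest value was -0.11 (CNTN5). Over flanks CTNNA2 (0.02), PTPRD (0.02), CSMD3 (0.01) and CSMD1 (0.0016) were above 0. None was called with voom weights or limma-trend, and 0% of all genes were, while 5 of the 8 had an unadjusted p under 0.05 (2 with limma-trend), as had 1548 of 17702 genes. CSMD3 had 284, 324 and 298 in WT cells after 1 exposure and 272, 268 and 267 after 3, with no overlap. In MGMT cells it had 272, 282 and 307 after 1 and 285, 246 and 261 after 3, which overlap. CSMD3 was called in 3 alternatives, without replicate 1 (-0.22, adjusted p = 0.013), with library quality weights and in a fit of these groups alone. CNTN5 had 72.5, 87.8 and 82.8 in MGMT cells after 1 exposure and 62.4, 65.6 and 66.1 after 3, with no overlap. In WT cells CNTN5 had 63.9, 84.5 and 82.8 after 1 exposure and 75.1, 74.7 and 72.7 after 3, which overlap. PTPRD did not overlap in either line. It had 226 to 269 in WT cells after 1 exposure and 217 to 225 after 3. In MGMT cells it had 218 to 236 after 1 and 211 to 216 after 3. CNTNAP2, CSMD1 and CTNNA2 did not overlap in WT cells but did in MGMT cells, and NRXN3 and DLG2 overlapped in both. How often other genes separate in this way was not computed. At A, C and T, 5 genes fell with exposures (CSMD3 by 0.26, PTPRD by 0.16, CTNNA2 by 0.14, CSMD1 by 0.11 and CNTNAP2 by 0.09), against 0.406% of all genes called lower. The term for exposures by treatment called 0 of the 8 at G (0% of all genes; 1 member at an unadjusted p under 0.05 with each method) and ranged from -0.25 (CNTN5) to -0.04 (CSMD1). The libraries of 1 and 3 exposures lie partly in different sets, so exposure number and set cannot be told apart in full.

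Along the genes the profile of naked DNA was flat in CSMD1 and uneven in DLG2. Over 41 windows of 50 kb, CSMD1 ranged from 215 to 299.0 density units, a coefficient of variation of 7.97% where counting error alone would give 6.17%. DLG2 ranged from 133 to 283 over 43 windows (20.8% against 6.93%). In DLG2, 17 windows lay below 200, a limit set after the profile was seen, and 8 of them formed 1 run at chr11:84805012-85205011. These windows were picked on the naked values, which fixes their ratio to the other 26 there (0.676). In values not used to pick them the ratio was 0.739 under solvent, 0.708 under TMZ and 0.753 at A, C and T over all libraries. NRXN3 was highest at its 5′ end, with 503 in the first window and a mean of 356 over the first 10 windows against 278 over the last 10. At A, C and T these means were 332 and 286. The 500 kb beyond the 5′ end of NRXN3 were also high, at 413 in naked DNA. CNTNAP2 had 296 over its first 10 windows and 402 over the last 10, at its 3′ end, and 357 and 425 at A, C and T. The 500 kb beyond that end were at 449 in naked DNA. Across windows of a gene, Pearson's r of log2 density in TMZ-treated cells with that in naked DNA ran from 0.31 (CSMD3, 24 windows) to 0.87 (DLG2, 43 windows). For solvent-treated cells it ran from 0.19 (CNTN5) to 0.77 (DLG2). For A, C and T over all libraries it ran from 0.12 (CTNNA2) to 0.83 (DLG2). Windows are not independent and share base composition, so these are descriptions. In CSMD3 the windows varied by 8.66% in naked DNA, where counting error alone would give 6.08%. Its low r therefore cannot show that the profiles differ.

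**Figure D5:**
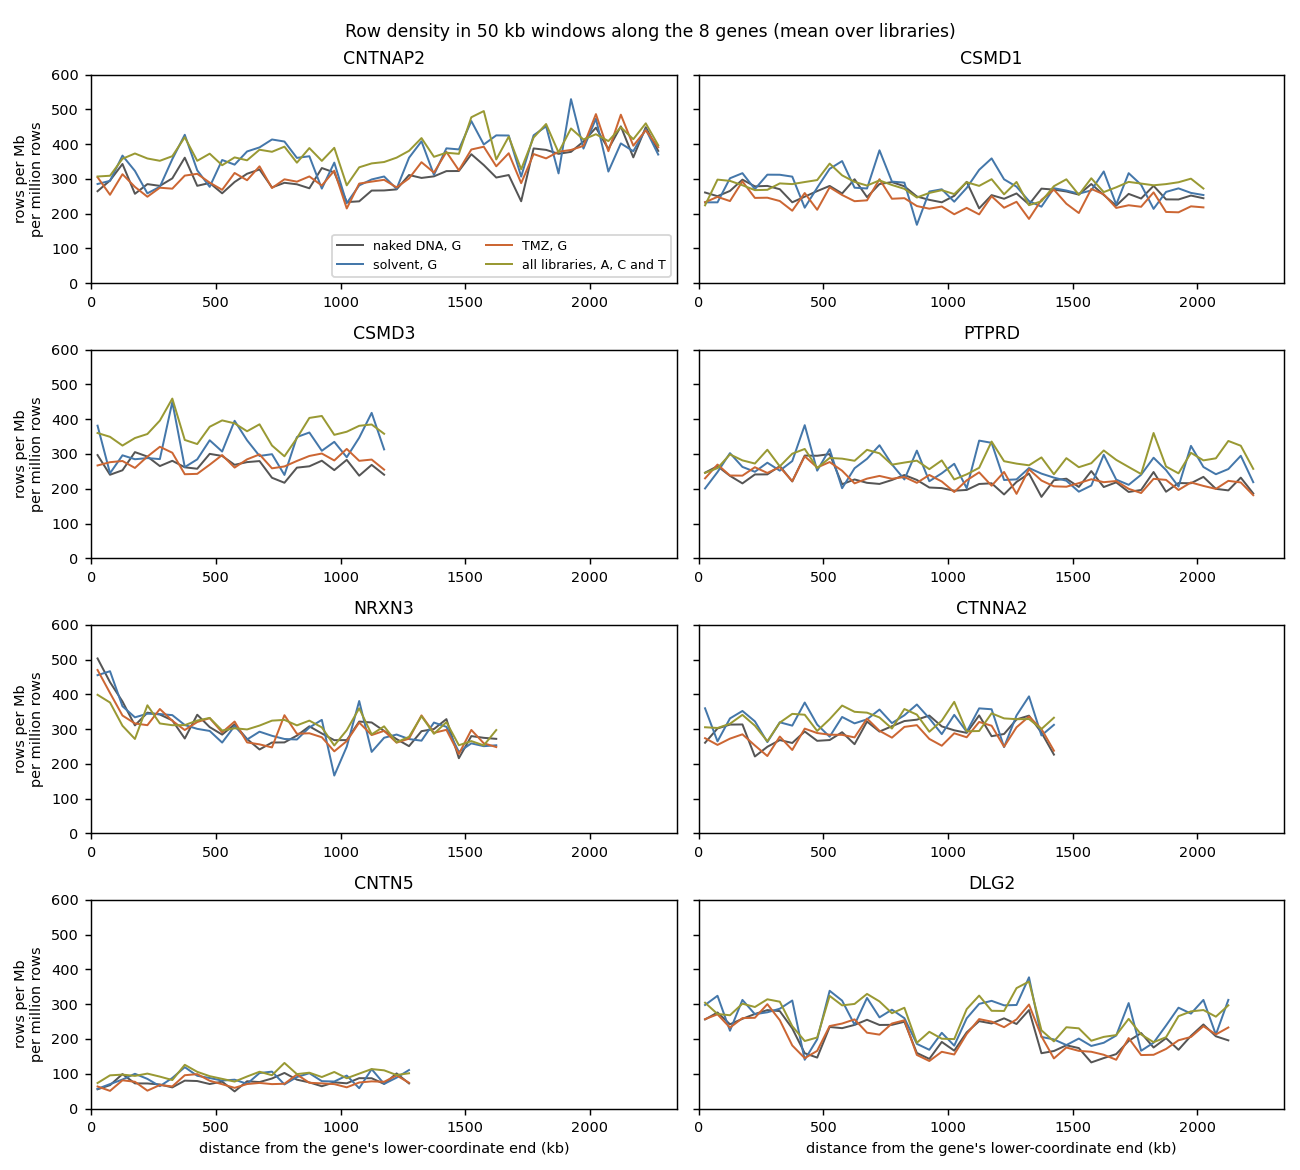
Density in 50 kb windows (y axis, density units) against the distance from the lower-coordinate end of each gene in kb, as means over naked, solvent and TMZ libraries for marked Gs and over all libraries for A, C and T. CNTN5 stays between 49.2 and 102 in naked DNA, the low run of 8 windows in DLG2 appears in all 4 lines, and NRXN3 starts at 503.

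By window and strand, 565 of the 574 features of the 8 genes passed the filter. Against naked DNA under TMZ none was called (0% of 36806 features of these and other genes; 18 of the members' at an unadjusted p under 0.05 and none with limma-trend). The smallest p was in DLG2, for the minus strand at chr11:84805012-84855011, at 0.67 (SE 0.22, adjusted p = 1.0). TMZ against solvent called 22, of which 21 were lower, against 1.55% of all features called lower. They were spread over 6 genes, 6 in CNTNAP2, 5 in DLG2, 4 in CSMD1, 3 in CNTN5 and 2 each in CSMD3 and PTPRD. A CSMD1 window on the plus strand at chr8:4435361-4485360 fell by 1.11 (SE 0.23, adjusted p = 0.0029), from 2.94 to 16.9 marked Gs per 1000000 of the library under solvent (median 7.47) to 1.35 to 6.35 under TMZ (median 5.22). It rests on 1 to 12 rows per solvent library, and the ranges overlapped, with medians closer than the fitted fall. The steepest values were in CNTN5, at -1.26 (SE 0.30, adjusted p = 0.010) on the minus strand of chr11:100120949-100170948 and -1.15 (SE 0.32, adjusted p = 0.028) on the plus strand of chr11:100020949-100070948, but at most 4 rows per solvent library lay behind each. The fit adds 0.5 to each count, which raises values most in libraries with few rows, as under solvent. The median over CNTN5 features was -0.47, against -0.24 for the whole gene, and in CNTNAP2 -0.14 against -0.15. How much of the falls comes from this offset was not tested. The 1 window called higher was in CNTNAP2 (0.85, SE 0.25, adjusted p = 0.042), on the minus strand at chr7:147966801-148016800, with 0 to 7 rows per solvent library, against 1.70% of all features called higher. Without replicate 2 or replicate 3 the 22 calls became 2, and 5 with limma-trend, while those over all features went from 1196 to 129, 104 and 317.

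The line difference of CTNNA2 was spread over the gene. Under TMZ, 55 of its 58 window and strand features were higher in MGMT than in WT cells (median 0.35), and 75 of 92 in CNTNAP2 (median 0.17). At A, C and T over all cell libraries, 29 of 29 windows of CTNNA2 were higher in MGMT. A single CTNNA2 window was called, on the plus strand at chr2:79885377-79935376 (0.87, SE 0.22, adjusted p = 0.046), against 0.416% of all features called higher. It ranged from 4.06 to 9.37 per 1000000 in the WT libraries (median 5.40) and from 6.49 to 17.7 in the MGMT ones (median 9.75). Among other alternatives, it was not called without replicate 2 or 3 or with limma-trend. With windows of 100 kb, 7 of the 282 members' features were called, against 1070 of 14379 over all features. The genotype by treatment term called none (0% of all features; 28 members' features at an unadjusted p under 0.05 and 0 called with limma-trend). Its smallest p was in DLG2, on the plus strand at chr11:84405012-84455011 (1.85, SE 0.55, adjusted p = 0.53).

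No change in the balance of the strands was called. The log2 ratio of plus to minus strand marks was called in 0 of the 8 genes for TMZ against naked DNA (0.0132% of 15201 genes), for TMZ against solvent (0.151%) and for MGMT against WT under TMZ (0%), each by limma with weights from the counts and without weights. At an unadjusted p under 0.05 there were 2 members in the first comparison and 0 in the others; the larger was CNTNAP2, at 0.09 (SE 0.03, adjusted p = 0.42). For the 6 genes whose strand the promoter table gives, the log2 ratio of coding to template strand in naked DNA was 0.15 ± 0.05 (SD, n = 3) in NRXN3, 0.12 ± 0.03 in PTPRD, 0.09 ± 0.03 in CTNNA2, 0.05 ± 0.03 in CNTNAP2, 0.05 ± 0.01 in DLG2 and -0.00 ± 0.01 in CNTN5. Under TMZ the means over 12 libraries were 0.12 to 0.19 in these genes, with SDs from 0.06 (NRXN3) to 0.22 (CNTN5). CNTN5 ranged from -0.16 to 0.77 there, and DLG2 from -0.02 to 0.55. Solvent libraries spread widely, from -0.63 to 0.50 in CTNNA2, on 88 to 371 marked Gs per library.

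Most marked positions were seen in 1 library only. The share expected from sparse marking was not computed, so the counts do not say whether recurrence was high or low. Of 206168 G positions marked in the 8 genes, 194881 (94.5%) were marked in 1 library, 10471 in 2, 709 in 3 and 107 in more. PTPRD had 1 position marked in 6 libraries, on the minus strand at chr9:9236384-9236384, in 5 TMZ libraries and 1 solvent library. CSMD3 had 1 marked in 7, of which 6 were TMZ libraries and 1 naked DNA.

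Related and similarly built genes give the frame for these values. Between TMZ and solvent the median of the 8 was -0.21. It was -0.10 for 50 genes of related adhesion and synapse families (5 called lower and 6 higher) and -0.01 for 24 long, broadly transcribed genes (2 lower, 1 higher). It was -0.11 for 10 giant genes of common fragile sites (2 lower, 0 higher) and -0.12 for all 61 other protein-coding genes of at least 1 Mb (26 lower, 2 higher). Between solvent and naked DNA the medians were 0.19 for the 8, 0.03, 0.09, 0.06 and 0.16 for the lists in the same order. Among 306 other genes of at least 500 kb, the profiles over the 8 cell groups most like the members' mean included those of STXBP5L (r = 0.98), CTNNA3 (0.98), FSTL5 (0.98) and CCSER1 (0.97), over group means that share libraries and the naked DNA reference. Such an r compares the shape of profiles and not their level, which was not matched. Among the members themselves the r with the mean of the other 7 ran from 0.89 (CSMD3 and DLG2) through 0.52 (CTNNA2) to 0.12 (NRXN3).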

How the data were processed

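O6-MeG-seq marks the base at which a polymerase stalls on immunoprecipitated DNA. The deposited files list each marked position once, with strand, base and a score from 0 to 42 set by the authors, whose meaning is not given in the sources used here. The submitters' processing notes name Trimmomatic (0.38 and 0.39), cutadapt, Bowtie2 2.3.5.1, GATK 4.2.0.0, SAMtools 1.12 and bedtools 2.29.2, and GRCh38. Entries at G with a score of at least 30 were counted per gene body and per 50 kb window and strand. Since a position is listed once per library, these are numbers of positions, not reads. Genes with at least 10 entries in at least 3 libraries were kept. All 9 groups entered 1 fit with limma 3.58.1 (voom) in R 4.3.3, scaled to the library's G entries, with adjusted p-values over all features and a threshold of 0.05. A, C and T positions were fitted alike. Strand ratios used limma with weights. The procedures were tested on simulated data without sets, with planted changes larger than any called in the 8 gene bodies. That test does not cover changes as small as those reported for the genes. The members and lists were chosen with earlier results of these data known. All members were named, with up to 3 called windows per direction by size of change or, where none was called, the one with the smallest p. Alternatives covered scaling, filters, score minimum, tool, GC content, flanks, blocks and left-out libraries. Depth limits the precision of single windows. Gene coordinates and start sequences came from RefSeq tables of GRCh38.p14, in which all 8 genes matched by symbol. Exons and introns were not used here. One gene among those with the most similar profiles is not reported here.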

Additional observations from a re-analysis of the deposited data

How the results depend on the processing

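The counts of called members changed as follows. TMZ against naked DNA went from 1 to 0 with trimmed mean scaling, median-of-ratios scaling, limma-trend, the replicate block, the sets as a block and flanks, and was 0 to 1 without single replicates. Over all genes these calls went from 125 to 12 with trimmed mean scaling, 84 with median-of-ratios scaling and 0 with limma-trend. Solvent against naked DNA went from 5 to 1 with limma-trend, to 1 with GC content taken out or over flanks, where that 1 is a different gene called lower (NRXN3 and CTNNA2) and none of the 5 is called, and to 0 with the sets as a block, and was 3 to 6 without single replicates. Here the calls over all genes went from 4054 to 193 with limma-trend and to 972 with GC content taken out. TMZ against solvent went from 7 to 2 with GC content taken out and to 0 over flanks, and was 3 to 7 without single replicates. Calls over all genes in this comparison went from 1882 to 427 with GC content taken out. For fits of genes without single replicates, counts over all genes are not given here. For 3 against 1 exposures it went from 0 to 1 with no minimum score (CNTN5, -0.39), with library quality weights and in a fit of the groups compared alone, and was 0 to 1 without single replicates. MGMT against WT under TMZ went from 2 to 1 with limma-trend or background subtracted and to 0 over flanks, and was 1 to 2 without single replicates. Over all genes limma-trend called 188 here, in place of 1155. Windows called for TMZ against solvent went from 22 to 5 with limma-trend and were 2 to 10 without single replicates. Windows for MGMT against WT went from 1 of 565 to 7 of 282 at 100 kb (1070 of 14379 over all features), 2 with median-of-ratios scaling (240 of 36806) and 0 with limma-trend or the replicate block, and were 0 to 1 without single replicates.

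Called values that changed sign, for solvent against naked DNA, were CNTN5 (-0.15 with the sets as a block, -0.017 with GC content taken out, -0.081 over flanks), CNTNAP2 (-0.0012) and PTPRD (-0.0098) with GC content taken out, and CSMD3 (-0.031 over flanks). For TMZ against solvent they were CTNNA2 (0.076), CSMD3 (0.066) and CNTN5 (0.021) over flanks. The cause was not tested. Of all alternative values for called results, 201 kept direction and side of the threshold, 49 lost the call and 9 changed sign.

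Replicate numbers are shared across groups, but same-numbered samples deviated together in only 6 of 12 genotype pairs and 5 of 12 treatment pairs (correlation above 0.1 over 2881 genes), so they were not taken as pairs. With 1 exposure, all 8 pairs of replicates 1 and 2 correlated (0.25 to 0.43), and the 4 of replicate 3 did not (-0.01 to 0.05). With the replicate block, solvent against naked DNA called 4, TMZ against solvent 7, MGMT against WT under TMZ 2 and the other cell comparisons 0. The subtraction of background gives no comparison with solvent libraries, and some blocks could not be fitted for some comparisons. The library that stood apart, left out, gave 7 called for solvent against naked DNA, 7 for TMZ against solvent and 2 for MGMT against WT under TMZ. CNTN5 rests on 17 to 978 marked Gs per library, which limits its precision.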
